A study of Mus musculus with 9 samples.

Results

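The cytosolic ribosomal protein genes were taken as the protein-coding genes whose symbol starts with Rpl or Rps, without the Rps6k kinase genes and without pseudogenes named with -ps, that had a mean of at least 1 CPM (counts scaled to a common library size) over 9 libraries. The naming rule found 86 genes, and 82 of them passed the level and are called members here. The whole table held 38887 rows, of which 14363 were tested, among them all 82 members. Of the members, 80 encode ribosomal proteins or their paralogs, 32 of the small subunit (40S) and 48 of the large subunit (60S). The other 2 are Rps19bp1, which encodes a binding protein of Rps19, and Rpl7l1, a relative of Rpl7. The rule does not catch Fau and Rack1, which also encode parts of the ribosome. The members lowest in level were Rps6 at 3.26 CPM and Rps13 at 4.02 CPM, while Rpl3l at 0.457 CPM and Rpl39l at 0.284 CPM fell just outside. Rpl10l and Rps27 were listed at 0 in all 9 libraries.

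RNA was sequenced from mouse dendritic cells raised in culture out of bone marrow (BMDC), which present antigen to T cells. The series title places them in work on lysophosphatidic acid (LPA), a signalling lipid, as a tumor product that blunts type I interferon responses in ovarian cancer. Cells were untreated, treated with LPA for 2 h or treated with LPA for 6 h, with 3 libraries in each group. The labels give no mouse strain, age or genotype, no LPA dose, no vehicle and no culture time for the untreated cells. Since no label ties a replicate to its own animal or culture, p-values reflect only how far these libraries spread, and that spread may be technical. Total counts ran from 29628817 to 84596899 per library. Of the dendritic cell markers checked, all 9 were detected, with sums of 7123 to 8214 CPM in untreated cells, 7582 to 8369 CPM at 2 h and 6659 to 7299 CPM at 6 h. The 8 macrophage markers summed to 3670 to 3722 CPM in untreated cells, 3955 to 4024 CPM at 2 h and 3967 to 4172 CPM at 6 h. No list of neutrophil, lymphocyte, erythroid, mast cell or stromal markers summed to more than 10.9 CPM in any library, and Cd3g and Ncr1 were at 0.

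Ribosomal proteins are built with ribosomal RNA into the 40S subunit, which reads the mRNA, and the 60S subunit, which joins amino acids and holds the exit tunnel of the new protein. Their mRNAs carry a run of pyrimidines at the 5′ end (the TOP motif), through which the mTORC1 kinase and the RNA-binding protein Larp1 control their translation. The same mRNAs are frequent templates for retroposition, which leaves intronless copies (processed pseudogenes) spread over the genome, many of them near-identical to the parent gene. In dendritic cells, protein synthesis and mTORC1 activity are known to change with activation.

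A share of the counts in this table stood in the rows of such copies. RSEM, the authors' counting program, divides a read that fits several transcripts among them, and how the reads of a member and its copies were divided was not tested. Rps6, a 40S protein whose phosphorylation is a standard readout of mTORC1 signalling, had the smallest share of counts in its own row. Its gene lies at chr4:86854660-86857412 on the minus strand of GRCm38, and its pseudogene Rps6-ps4 at chr2:75191073-75191822, also on the minus strand. All 750 coding bases of Rps6 were identical in Rps6-ps4. The first 60 bases of each, read from GRCm38 transcripts with the start codon in capitals, show that a read from this stretch cannot be placed:
Rps6: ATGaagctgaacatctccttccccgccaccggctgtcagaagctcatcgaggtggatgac
Rps6-ps4: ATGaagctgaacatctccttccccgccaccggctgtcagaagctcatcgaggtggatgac

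The Rps6 row held 4.51, 4.01 and 3.30 CPM in untreated cells, 2.72, 2.67 and 3.37 CPM at 2 h and 3.38, 2.87 and 2.52 CPM at 6 h. The Rps6-ps4 row averaged 375.5 CPM over the 9 libraries, so 0.86% of the counts of the gene and its matched pseudogenes stood in the gene's own row. With those rows added together, Rps6 had 385, 383 and 387 CPM in untreated cells, 414, 392 and 428 CPM at 2 h and 341, 347 and 337 CPM at 6 h. On this sum every 2 h library lay above every untreated one, and every 6 h library lay below.

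Over the whole set, 560 pseudogene rows matched a member's transcript over at least 50% of their length at 90% identity or more, and 36 of these had at least 1 CPM. They belonged to 33 members. Matched pseudogene rows held 4435 CPM on average, against 17032 CPM in the member rows, or 20.7% of both together. That share ran from 20.5% to 20.8% over the 9 libraries, so it hardly moved with LPA. The own row held at least 90% of the counts in 57 members, 50% to 90% in 8 and under 50% in 17. Besides Rps6-ps4, the matched pseudogene rows with the most counts were Rpl10-ps3 of Rpl10 (403.4 CPM), Gm15500 of Rpl5 (342.9 CPM), Gm12918 of Rpl13 (293.4 CPM), Gm7536 of Rpl27a (244.1 CPM) and Rps16-ps2 of Rps16 (235.3 CPM). The coding bases of Rps6, Rpl5, Rps16, Rpl28 and Rpl10a were 100% identical in the pseudogene that held most of their counts. Rpl21 and Gm10163 were 99.6% identical.

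**Figure D1:**
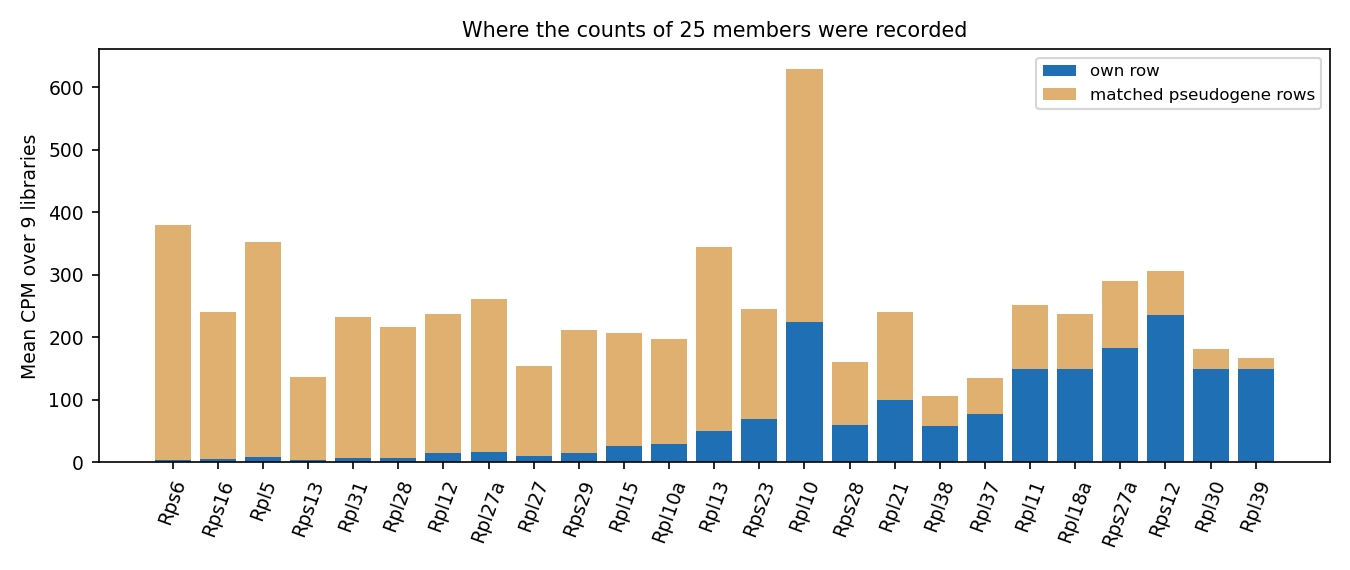
Bars give the mean CPM over 9 libraries for the 25 members (x axis, ordered by the share in their own row) whose own row held under 90% of their counts, with the own row in blue and matched pseudogene rows in tan. Rps6, Rps16, Rpl5, Rps13, Rpl31 and Rpl28, at the left, have almost all of their counts in pseudogene rows.

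The levels of the members per kilobase of transcript were far more alike once these rows were joined. From own rows alone the 80 ribosomal protein members ran from 3.71 to 927 CPM per kilobase, with 12 of them under 50. With pseudogene rows added the range was 51.3 to 927 CPM per kilobase, with 0 under 50. The ratio of the upper to the lower quartile was 3.53 on own rows and 1.71 on the sums. Adding rows can only raise a member's level, and which gene the reads in these rows came from was not tested. The highest levels per kilobase on own rows belonged to Rplp0 at 927, Rplp1 at 886, Rpl41 at 823, Rps24 at 613, Rpl19 at 609 and Rps2 at 561. Transcript length here is the median of the annotated coding transcripts, and for such short genes the level per kilobase depends on it.

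As a set, ribosomal protein transcripts were highest after 2 h of LPA and lowest after 6 h. Member rows summed to 16792, 17156 and 16616 CPM in untreated cells, to 18299, 17846 and 17930 CPM at 2 h and to 16356, 16196 and 16101 CPM at 6 h. The 3 groups did not overlap in this sum, with means of 16855 ± 275, 18025 ± 241 and 16218 ± 129 CPM (SD, n = 3 each). As a share of all counts, with no scaling factor, the members held 1.66% to 1.70% in untreated cells, 1.75% to 1.79% at 2 h and 1.64% to 1.68% at 6 h. On that measure the 2 h libraries stood above all others, and the 6 h and untreated libraries overlapped. The ratio of 60S to 40S transcripts stayed between 1.29 and 1.31 in all 9 libraries. In bulk RNA, fewer cells of a type and less RNA per cell cannot be told apart.

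**Figure D2:**
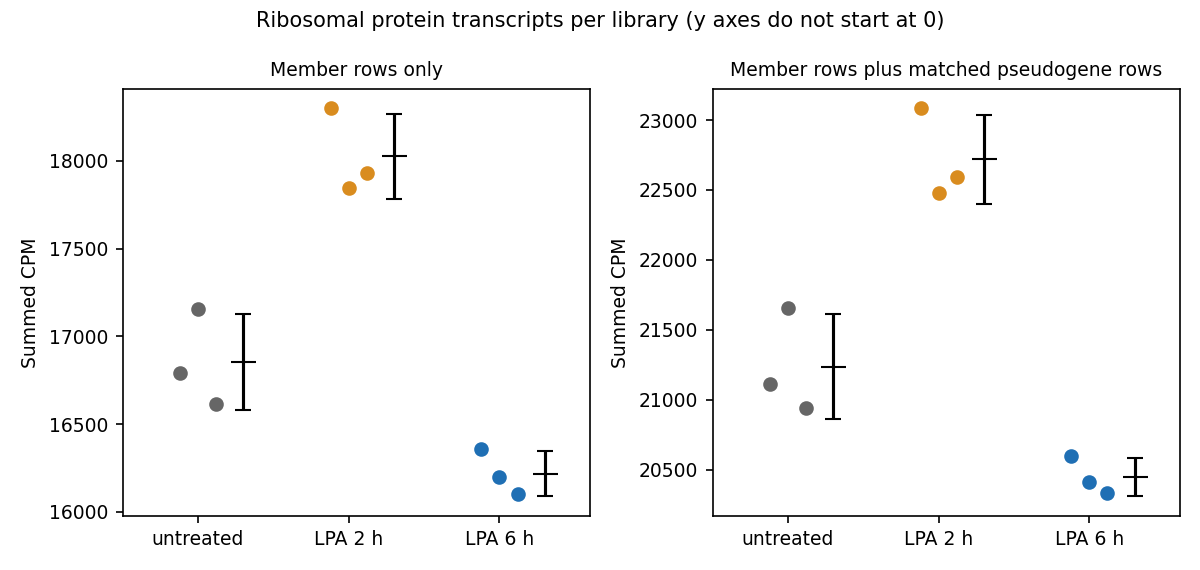
Points are the 9 libraries, as summed CPM of the member rows (left) and of the member rows plus matched pseudogene rows (right), with the group mean and SD beside them. The 2 h libraries lie at 17846 CPM or above in the left panel and the 6 h libraries at 16356 CPM or below. The y axes do not start at 0.

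At 2 h against untreated, 20 of the 82 members rose and 5 fell in edgeR's quasi-likelihood test (adjusted p under 0.05 over all tested rows). Over all 14363 rows 19.3% were called higher and 19.2% lower. The members' median log2 fold change was 0.09, a change of 6.18%, and the median over all rows was 0.00. No member changed by as much as 2-fold, and 78 changed by less than 1.2-fold. All 3 LPA 2 h libraries lay above all 3 untreated libraries in 38 members and below them in 6, where 24.3% and 24% of all rows did so. With pseudogene rows added, 25 members rose and 0 fell, where 19.4% and 19.2% of all rows did, and the median stayed at 0.09. The count of rises was less steady than the median. It was 10 without untreated replicate 1, 6 without untreated replicate 3 and 8 without LPA 2 h replicate 1, and 9 with an offset for transcript length in each library. Over all rows 2392 of 14604, 2218 of 14589 and 2295 of 14451 were called higher without these libraries, and 2749 of 14363 with the offset. In each of these settings that is a larger share than among the 82 members.

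Length stood beside this result as follows. Members are short, with a median of 735.75 bases against 2259 bases over tested rows, and 63 of the 82 are under 1000 bases. Among rows that are not members, those under 1000 bases had a median log2 fold change of 0.04 at 2 h, and those over 2000 bases one of -0.03.

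The largest rise at 2 h was that of Rpl24, a 60S protein at the interface of the subunits. It had 220, 225 and 229 CPM at 2 h, against 198, 192 and 193 CPM in untreated cells. The groups did not overlap, and the log2 fold change was 0.21 ± 0.04 (SE, edgeR adjusted p = 0.00114). Rpl9 rose by 0.17 ± 0.04 (edgeR adjusted p = 0.00612), with 315, 321 and 330 CPM at 2 h against 289, 278 and 292 CPM in untreated cells. Rpsa, a 40S protein first described as a laminin receptor, rose by 0.16 ± 0.04 (edgeR adjusted p = 0.0121). Rps4x, the X-linked form of the 40S protein S4, rose by 0.15 ± 0.04 (edgeR adjusted p = 0.00904). Rps3, which lines the mRNA entry channel and also takes part in DNA repair, rose by 0.13 ± 0.04 (edgeR adjusted p = 0.0262). Rpl17 and Rpl39, both of the exit tunnel, rose by 0.16 ± 0.04 and 0.14 ± 0.04 (edgeR adjusted p = 0.0107 and 0.0253). The calls of Rpl24, Rpl9 and Rps4x held with each library left out in turn. Rpsa did not pass without untreated replicate 1 (0.13, edgeR adjusted p = 0.0602), nor Rpl17 without untreated replicate 3 (0.14, edgeR adjusted p = 0.0602). Rps3 did not pass without untreated replicate 2, untreated replicate 3 or LPA 2 h replicate 1 (edgeR adjusted p up to 0.113), nor Rpl39 without untreated replicate 2, untreated replicate 3 or LPA 2 h replicate 3 (up to 0.106). With a length offset Rpl39 was at 0.10 and did not pass (edgeR adjusted p = 0.122).

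All 5 members that fell at 2 h on their own rows, Rpl10a, Rpl15, Rpl28, Rpl5 and Rps6, had 0.86% to 14.6% of their counts there. Rpl10a had 22.3, 26.1 and 21.3 CPM at 2 h against 37.9, 40.7 and 40.6 CPM in untreated cells, with no overlap. Its log2 fold change of -0.77 ± 0.07 (edgeR adjusted p = 7.35e-06) was the lowest of any member at 2 h. With Rpl10a-ps1 and its other matched rows added, Rpl10a had 204, 201 and 198 CPM at 2 h against 210, 213 and 212 CPM in untreated cells, and the log2 fold change was -0.07 ± 0.04 (edgeR adjusted p = 0.17). The sums of Rps6, Rpl5, Rpl28 and Rpl15 had log2 fold changes of 0.09, 0.09, 0.08 and 0.04, none of which passed the test. The highest own-row value at 2 h, 0.28 ± 0.17 for Rps16, also rested on a row of 4.10 to 7.13 CPM and did not pass the test (edgeR adjusted p = 0.214).

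At 6 h against untreated the balance was the opposite, with 2 members that rose and 32 that fell, where 26.4% and 25.7% of all rows were called in those directions. The median log2 fold change was -0.09, a change of -6.1%, against 0.01 over all rows. All 6 h libraries lay below all untreated libraries in 43 members and above them in 6, against 31% and 32% of all rows. With pseudogene rows added, 2 members rose and 27 fell, where 26.5% and 25.8% of all rows did, with a median of -0.07. Under a replicate block, 4 members rose and 37 fell, where 4072 and 3964 of 14363 rows did. The count of falls was 20 without LPA 6 h replicate 2, 20 without LPA 6 h replicate 3, 18 without a scaling factor and 18 without the filter on low counts. Without those libraries 3219 of 14530 and 3041 of 14452 rows were called lower, and without a scaling factor 3212 of 14363. The member counts of 20, 20 and 18 are near those shares. Without the filter 3366 of 22804 rows were called lower. The 2 h and 6 h comparisons share the untreated libraries.

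Between the LPA groups, at 6 h against 2 h, 56 members fell and 1 rose, where 24.4% of all rows were called lower and 24.3% higher. The median log2 fold change was -0.17, a change of -11.2%, against -0.01 over all rows. All 6 h libraries lay below all 2 h libraries in 64 members and above them in 1, against 29.7% and 29.2% of all rows. With pseudogene rows added, 60 members fell and 1 rose, where 24.5% and 24.4% of all rows did, with the same median of -0.17. This comparison moved least with the choice of libraries, with 44 to 57 members lower when each of the 9 libraries was left out in turn. In 67 of the 82 members the 2 h mean was the highest of the 3 group means, and in 58 the 6 h mean was the lowest.

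**Figure D3:**
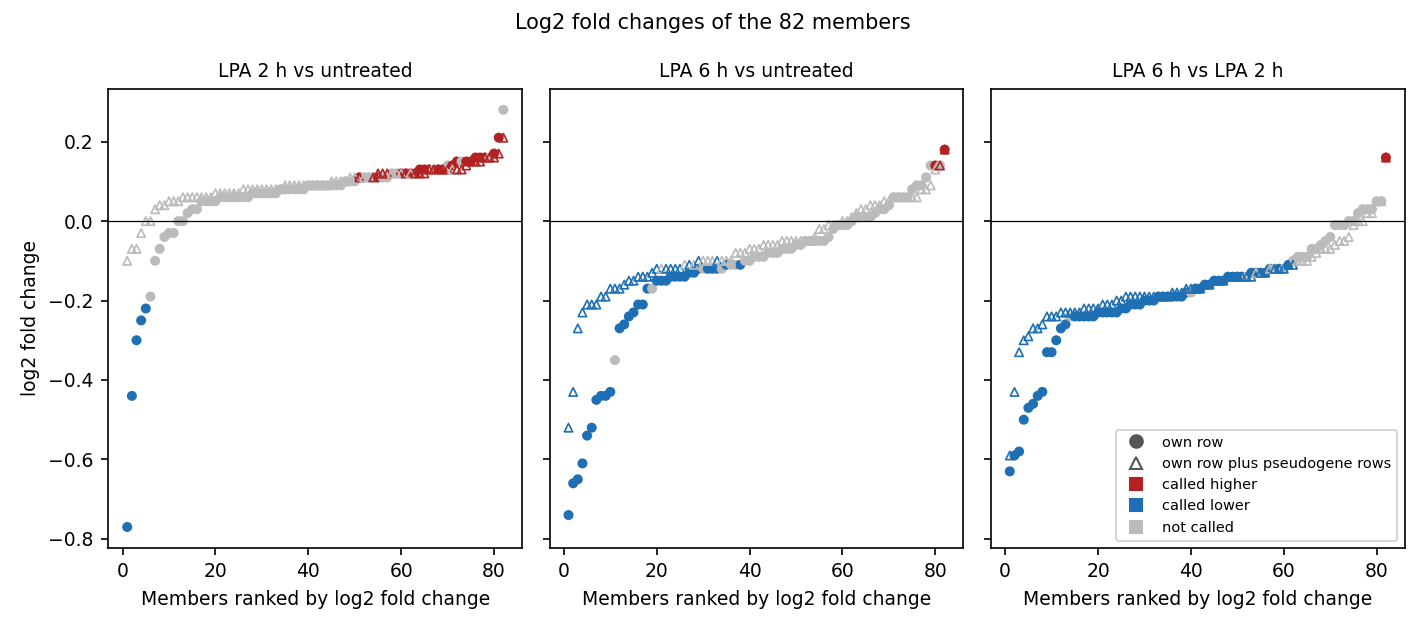
Each point is a member, ranked along the x axis by its log2 fold change (y axis) in 3 comparisons, from its own row (filled circles) or with matched pseudogene rows added (open triangles), in red where called higher, blue where called lower and grey where not called by edgeR. The lowest own-row values, down to -0.77 at 2 h and -0.74 at 6 h, lie closer to 0 once pseudogene rows are added, while the middle of each curve keeps its place.

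The 57 members whose own row held at least 90% of their counts are given apart here. Among them 18 rose and 0 fell at 2 h against untreated, 2 rose and 19 fell at 6 h against untreated, and 1 rose and 43 fell at 6 h against 2 h. The 18 rises are 31.6% of these members, where 19.3% of all rows were called higher. The 19 and 43 falls are 33.3% and 75.4%, where 25.7% and 24.4% of all rows were called lower. The medians of these 57 members were 0.09, -0.07 and -0.16. In the 17 members with under 50% in the own row, own rows gave 12 falls at 6 h against untreated and a median of -0.35, while the sums gave 7 falls and a median of -0.10. These falls are 70.6% and 41.2% of the 17, where 25.7% and 25.8% of all rows were called lower. At 6 h the own-row median of these 17 thus lay below that of the sums. For Rpl31, an exit tunnel protein, the own row had 4.34, 5.88 and 5.46 CPM at 6 h against 7.40, 8.19 and 8.60 CPM in untreated cells, a log2 fold change of -0.61 ± 0.11 (edgeR adjusted p = 0.000477). The sum had 226, 236 and 233 CPM at 6 h against 213, 235 and 219 CPM in untreated cells, which overlap, with 0.06 ± 0.05 (edgeR adjusted p = 0.327).

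The subunits are counted apart here. Of the 32 small subunit members, 11 rose and 1 fell at 2 h against untreated, 0 rose and 11 fell at 6 h against untreated, and 0 rose and 23 fell at 6 h against 2 h. Of the 48 large subunit members, 9 rose and 4 fell at 2 h against untreated, 2 rose and 21 fell at 6 h against untreated, and 0 rose and 33 fell at 6 h against 2 h. The rises at 2 h are 34.4% of the 40S and 18.8% of the 60S members. Over all rows 19.3% were called higher, so the 60S count on own rows is near that share. With pseudogene rows added, 12 of the 40S members (37.5%) and 13 of the 60S members (27.1%) rose at 2 h, and 0 fell. On that fit 19.4% of all rows were called higher and 19.2% lower. The falls at 6 h against untreated are 34.4% and 43.8%, where 25.7% of all rows fell. Those at 6 h against 2 h are 71.9% and 68.8%, where 24.4% of all rows fell. On the sums the falls against untreated were 28.1% and 37.5%, where 25.8% of all rows fell, so the 40S count is near that share. Against 2 h they were 71.9% and 77.1%, where 24.5% of all rows fell. The own-row medians of the 40S members were 0.11, -0.08 and -0.16 in the 3 comparisons, and those of the 60S members were 0.08, -0.11 and -0.18. Both subunits thus had the same order of groups, and the difference between them was not tested.

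The P stalk, which recruits the translation factors that hydrolyse GTP, is made of Rplp0, Rplp1 and Rplp2 and sits next to Rpl12. Rplp0 had 717, 768 and 731 CPM in untreated cells, 821, 834 and 802 CPM at 2 h and 797, 843 and 809 CPM at 6 h. Every LPA library lay above every untreated library, and Rplp0 rose by 0.15 ± 0.04 at 2 h and by 0.14 ± 0.04 at 6 h (edgeR adjusted p = 0.0197 and 0.0168). It was the only member called higher at both times. The 2 h call was lost without untreated replicate 1, untreated replicate 3 or LPA 2 h replicate 1, and the 6 h call without untreated replicate 1, untreated replicate 3 or LPA 6 h replicate 2, at edgeR adjusted p of 0.0528 to 0.081 and log2 fold changes of 0.12 to 0.15. Rplp1 had log2 fold changes of 0.11 ± 0.05 at 2 h and 0.06 ± 0.05 at 6 h, and Rplp2 -0.07 ± 0.05 and -0.06 ± 0.05, none of which passed the test. With a length offset Rplp2 passed at 2 h, at -0.13 (edgeR adjusted p = 0.039). None of these 4 genes was called at 6 h against 2 h on its own row. With its pseudogene rows, Rpl12 rose at 2 h by 0.12 ± 0.04 (edgeR adjusted p = 0.0234) and fell at 6 h against 2 h, with a log2 fold change of -0.19 (edgeR adjusted p = 0.00138).

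Rpl41, the smallest ribosomal protein, was the other member that rose at 6 h. It had 445, 462 and 463 CPM at 6 h against 383, 439 and 386 CPM in untreated cells. The 6 h libraries lay above all untreated ones, and the log2 fold change was 0.18 ± 0.06 (edgeR adjusted p = 0.0204). The call was lost without untreated replicate 1 or 3 or LPA 6 h replicate 2 or 3, at log2 fold changes of 0.15 to 0.17 (edgeR adjusted p up to 0.0906). Rpl7l1, which is not a ribosomal protein, was the 1 member higher at 6 h than at 2 h, with 72.4, 73.2 and 72.2 CPM at 6 h against 65.4, 66.9 and 63.0 CPM at 2 h. Its log2 fold change was 0.16 ± 0.04 (edgeR adjusted p = 0.00703), and the call held with each library left out.

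Rpl5 and Rpl11 bind 5S ribosomal RNA, and free of the ribosome they bind Mdm2 and so stabilise p53. The own row of Rpl11 held 59.4% of its counts and had 142, 130 and 143 CPM at 6 h against 154, 158 and 149 CPM in untreated cells. It fell by 0.15 ± 0.06 on the log2 scale (edgeR adjusted p = 0.0397) without overlap. The call was lost with any untreated replicate left out and without LPA 6 h replicate 2 or 3 (edgeR adjusted p of 0.051 to 0.168), with total counts only (0.108) and with no filter (0.0601). The sum of Rpl5 and its pseudogene rows had 337, 321 and 329 CPM at 6 h against 359, 350 and 348 CPM in untreated cells. These did not overlap, and the log2 fold change was -0.10 ± 0.04 (edgeR adjusted p = 0.0598).

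The 8 members that line the exit tunnel or its rim, where the signal recognition particle docks, all fell at 6 h against 2 h on own rows, where 24.4% of all rows and 68.3% of all members were called lower, and 7 fell on the sums. At 2 h against untreated 4 of the 8 rose, where 19.3% of all rows and 24.4% of all members did. Genes whose human counterparts are mutated in Diamond-Blackfan anemia, an inherited failure of red cell production, numbered 17 among the members. Of these, 3 rose and 2 fell at 2 h against untreated, 0 rose and 9 fell at 6 h against untreated, and 0 rose and 14 fell at 6 h against 2 h. The 3 rises at 2 h are 17.6% of the list, near the 19.3% of all rows called higher. The falls at 6 h are 52.9% of the list against untreated, where 25.7% of all rows and 39% of all members were called lower. Against 2 h they are 82.4%, where 24.4% of all rows and 68.3% of all members were. With pseudogene rows added, 4 of the 17 rose and 0 fell at 2 h against untreated, 8 fell at 6 h against untreated and 14 against 2 h. On that fit 19.4% of all rows were called higher at 2 h, and 25.8% and 24.5% lower in the 6 h comparisons. Rps19, the member of this list most often mutated in patients, had 292, 299 and 290 CPM at 6 h, against 323, 322 and 325 CPM at 2 h. These did not overlap, and the log2 fold change was -0.14 ± 0.04 (edgeR adjusted p = 0.0101). Rps24 of the same list had 324, 314 and 327 CPM at 2 h against 305, 294 and 295 CPM in untreated cells, and rose by 0.11 ± 0.04 (edgeR adjusted p = 0.0422). The call of Rps19 held with each library left out but not with total counts only (-0.09, edgeR adjusted p = 0.0771). That of Rps24 was lost without any 1 of the libraries other than LPA 2 h replicate 2 (up to 0.136), with a length offset (0.06, edgeR adjusted p = 0.262), with total counts only (0.0617), with DESeq2 size factors (0.0516), with no filter (0.0721) and with only the 6 libraries compared (0.0769). All 4 X-linked members, Rpl10, Rpl36a, Rpl39 and Rps4x, fell at 6 h against 2 h, where 66.7% of the members not on X and 24.4% of all rows did. Without LPA 6 h replicate 2 or replicate 3, the calls of Rpl10, Rpl36a and Rpl39 were lost (edgeR adjusted p of 0.0698 to 0.102). Those of Rpl10 and Rpl39 were also lost without LPA 2 h replicate 3 (edgeR adjusted p = 0.0863 and 0.0795). With total counts only these 3 calls were lost too (edgeR adjusted p of 0.0691 to 0.183), those of Rpl10 and Rpl39 with a length offset (0.0579 and 0.0757), and those of Rpl36a and Rpl39 with no filter (0.0551 and 0.0564).

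Among abundant members with clean rows, Rpl3, which sits near the site of peptide bond formation, had 357, 347 and 350 CPM at 6 h against 410, 412 and 411 CPM in untreated cells. The groups lay far apart for their spread, and the log2 fold change was -0.23 ± 0.04 (edgeR adjusted p = 0.000937). Rps2, at the mRNA entry channel, had 546, 483 and 547 CPM at 6 h against 562, 599 and 575 CPM in untreated cells. Its 6 h replicate 2 was low in its group, and the log2 fold change was -0.14 ± 0.05 (edgeR adjusted p = 0.047). Without that library it was -0.08 (edgeR adjusted p = 0.213), and the call was also lost without LPA 2 h replicate 1 or any untreated replicate, and with total counts only (-0.10, edgeR adjusted p = 0.144), no filter (0.0816) or a length offset (0.0632), while that of Rpl3 held with each library left out. Rpl13a, which is known to leave the ribosome and silence inflammatory mRNAs in interferon-treated myeloid cells, had log2 fold changes of 0.09 ± 0.04 at 2 h and -0.01 ± 0.04 at 6 h. Neither passed the test (edgeR adjusted p = 0.115 and 0.875). Rps27a, made as a fusion with ubiquitin, had 0.08 ± 0.05 and -0.11 ± 0.05, and neither passed, though the 6 h value did in the fit with a replicate block (edgeR adjusted p = 0.0208). Rps23 was singled out after its values were seen, as the only member called higher at 2 h (0.15 ± 0.04) and lower at 6 h (-0.12 ± 0.04) on its own row. That row held 28.4% of its counts, and on the sum the 2 h value was 0.08 ± 0.04 and did not pass (edgeR adjusted p = 0.113).

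The own row of Rpl30 had 184, 125 and 123 CPM in untreated cells, 194, 149 and 139 CPM at 2 h and 179, 123 and 125 CPM at 6 h. Replicate 1 was the highest of each group. With pseudogene rows added, Rpl30 had 186, 170 and 172 CPM in untreated cells, 196, 192 and 193 CPM at 2 h and 181, 170 and 170 CPM at 6 h. On the sums the 2 h libraries lay above all others, and the log2 fold change at 2 h was 0.14 ± 0.05 (edgeR adjusted p = 0.0302), against 0.16 ± 0.23 (edgeR adjusted p = 0.637) on the own row. Under a replicate block the own row passed as well, with 0.17 at 2 h against untreated and -0.18 at 6 h against 2 h (edgeR adjusted p = 0.00809 and 0.00442).

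Among members with clean rows, the largest falls at 6 h were those of 3 paralogs, Rpl22l1, Rpl36al and Rps27l, which encode close relatives of the standard proteins Rpl22, Rpl36a and Rps27. They are distinct enough in sequence for their reads to be placed. Aligned over whole coding sequences, Rpl22 and Rpl22l1 were 68.2% identical, and Rpl36a and Rpl36al 87.9%. Rps27 and Rps27l were compared only over their best-matching stretch of 187 aligned positions, which was 79.7% identical. The identical bases there are 58.4% of the 255 coding bases of Rps27. Rps27 itself and its retrogene Rps27rt shared 100% of 255 coding bases and a run of 341 identical bases of the 345 in the Rps27 transcript. Rps27rt held all the counts and Rps27 was listed at 0, so the Rps27rt row is read here as either gene. The first 60 coding bases from GRCm38 show these relations, with differences from the first sequence of each set in capitals. Rps27 lies at chr3:90212522-90213651 (minus strand), Rps27rt at chr9:114982366-114982739 (minus), Rps27l at chr9:66946086-66949516 (plus), Rpl36a at chrX:134585654-134588062 (plus) and Rpl36al at chr12:69182731-69184083 (minus).
Rps27: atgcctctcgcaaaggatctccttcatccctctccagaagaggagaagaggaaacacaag
Rps27rt: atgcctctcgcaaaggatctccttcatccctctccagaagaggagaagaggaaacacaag
Rps27l: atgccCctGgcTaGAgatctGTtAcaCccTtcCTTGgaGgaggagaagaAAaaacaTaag
Rpl36a: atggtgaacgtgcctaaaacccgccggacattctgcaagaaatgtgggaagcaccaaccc
Rpl36al: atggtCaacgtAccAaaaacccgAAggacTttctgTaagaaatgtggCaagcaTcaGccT

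Within these 60 bases Rps27rt differed from Rps27 at 0 positions, Rps27l from Rps27 at 18, and Rpl36al from Rpl36a at 11. Rpl22l1 had 22.3, 19.4 and 22.7 CPM at 6 h against 32.8, 26.8 and 33.0 CPM in untreated cells. The groups did not overlap, and it fell to 21.5 ± 1.78 CPM at 6 h, against 30.9 ± 3.54 CPM in untreated cells (SD, n = 3 each). The log2 fold change was -0.52 ± 0.09 (edgeR adjusted p = 0.000539). Rpl22 had 89.9, 80.1 and 83.4 CPM at 6 h against 96.8, 94.6 and 94.3 CPM in untreated cells, and fell by 0.17 ± 0.05 on the log2 scale (edgeR adjusted p = 0.00867).

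Rpl36al had 65.7, 67.3 and 69.2 CPM at 6 h against 91.8, 92.0 and 87.9 CPM in untreated cells, with no overlap. Its log2 fold change was -0.43 ± 0.05 (edgeR adjusted p = 1.06e-05), while that of Rpl36a was -0.05 ± 0.05 (edgeR adjusted p = 0.363). Rps27l, a target gene of p53, had 71.5, 76.4 and 72.5 CPM at 6 h against 86.8, 90.5 and 88.7 CPM in untreated cells. It fell without overlap, by 0.27 ± 0.04 on the log2 scale (edgeR adjusted p = 0.000267). Rps27rt had 147, 146 and 148 CPM at 6 h against 140, 138 and 136 CPM in untreated cells, with a log2 fold change of 0.09 ± 0.04 (edgeR adjusted p = 0.0557). That value passed under a replicate block (0.0462), with DESeq2 (0.0414) and with limma-voom (0.0452), all adjusted p. Rps27rt rose at 2 h, by 0.16 ± 0.04 (edgeR adjusted p = 0.00544), when none of the 3 paralogs was called. With a length offset it was at 0.09 at 2 h and did not pass (edgeR adjusted p = 0.0772). The falls of Rpl22l1, Rpl36al, Rps27l and Rpl22 at 6 h held with each library left out in turn.

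The ratio of each paralog to its partner was also lower at 6 h. The log2 ratio of Rpl36al to Rpl36a was -0.18, -0.09 and -0.02 at 6 h, against 0.29, 0.24 and 0.30 in untreated cells. That of Rps27l to Rps27rt was -1.04, -0.93 and -1.03 at 6 h, against -0.68, -0.61 and -0.61 in untreated cells. That of Rpl22l1 to Rpl22 was -2.01, -2.05 and -1.88 at 6 h, against -1.56, -1.82 and -1.51 in untreated cells. The groups did not overlap in any of the 3 ratios, whose mean differences were -0.38, -0.36 and -0.35. With 3 libraries against 3 an exact two-sided permutation test cannot give a p below 0.1, so these ratios have no call of their own.

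**Figure D4:**
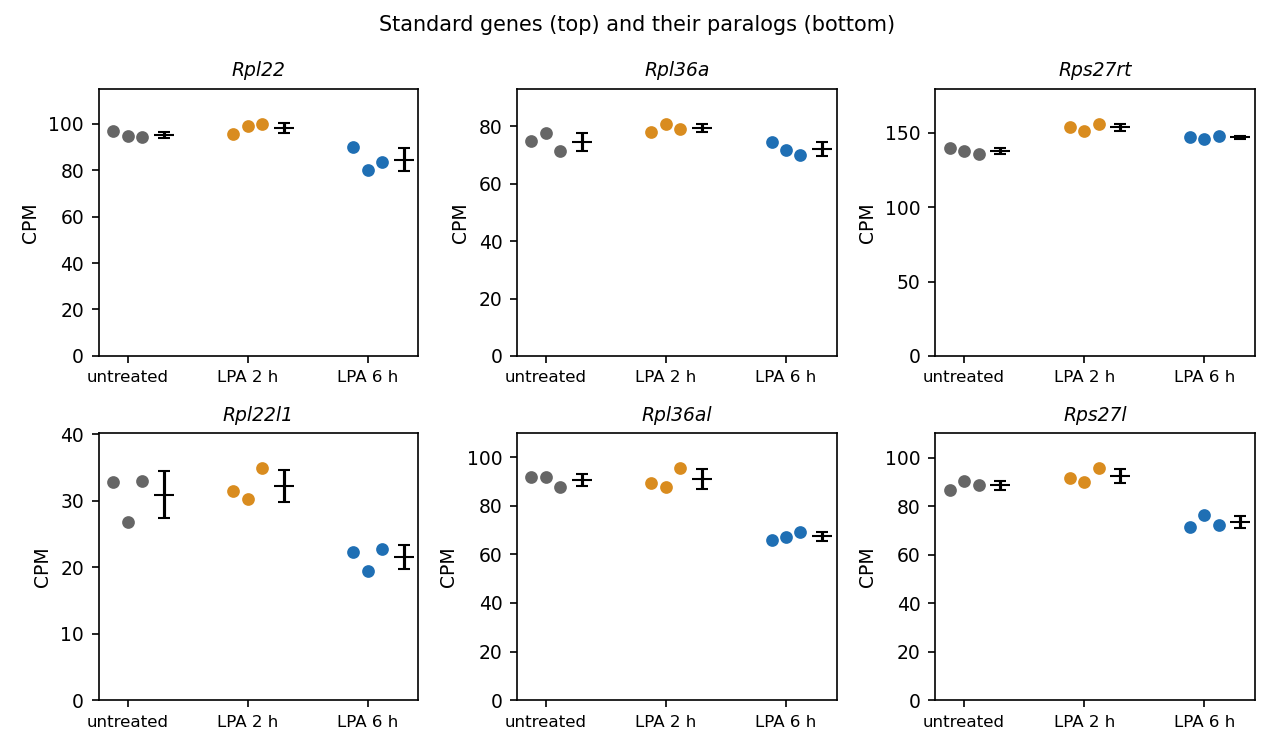
Points are CPM in each of 9 libraries (3 untreated, 3 at 2 h, 3 at 6 h of LPA) for Rpl22, Rpl36a and Rps27rt (top) and for their paralogs Rpl22l1, Rpl36al and Rps27l (bottom), with the group mean and SD beside them. In the bottom row the 6 h points lie below all other points, at 22.7 CPM or lower for Rpl22l1 and 69.2 CPM or lower for Rpl36al.

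Promoters in RefSeq (GRCm38.p6), from 250 bases before to 50 after each start, were matched for 62 of the 82 members. A gene was counted if any of its promoters held the motif. The ETS-type motif CCGGAAG, on either strand, was present in 40.3% of these members and in 9.9% of all 27025 genes. AAGATGG, a YY1-type motif, on either strand, was present in 14.5% and 7.3%. The pyrimidine run CTCTTTC on the sense strand was present in 21.0% and 4.6%, and TATAAA on the sense strand in 9.7% and 9.8%. None of these motifs contains another, though their ends can overlap, as at the AAG shared by CCGGAAG and AAGATGG. Windows from 60 bases before to 30 after the RefSeq start, all on the plus strand, are given for the gene that rose at both times and for a pair of the paralogs that fell at 6 h, with matches to the 4 motifs in capitals. They lie at chr5:115559407-115559496, chr3:28805448-28805537 and chr9:66946026-66946115.
Rplp0: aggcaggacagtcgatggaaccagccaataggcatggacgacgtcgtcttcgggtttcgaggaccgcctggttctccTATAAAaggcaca
Rpl22l1: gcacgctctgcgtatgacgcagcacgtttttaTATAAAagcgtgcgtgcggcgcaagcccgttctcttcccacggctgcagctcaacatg
Rps27l: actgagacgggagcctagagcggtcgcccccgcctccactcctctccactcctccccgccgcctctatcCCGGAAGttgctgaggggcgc

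The match in Rpl22l1 stood before the RefSeq start, and those in Rplp0 and Rps27l after it. Rplp0 rose and Rpl22l1 fell at 6 h, and whether their TATAAA matches bear on this was not tested.

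Genes that work with the ribosomal proteins moved in part with them and in part apart. The lists below were chosen with earlier results of these data known. Their counts stand beside the shares of all rows called higher and lower. Those shares were 19.3% and 19.2% at 2 h against untreated and 26.4% and 25.7% at 6 h against untreated. At 6 h against 2 h they were 24.3% and 24.4%. Of 8 elongation factors, which carry the ribosome along the mRNA, 2 rose and 1 fell at 2 h against untreated, 1 rose and 5 fell at 6 h against untreated, and 0 rose and 6 fell at 6 h against 2 h. That is 25% and 12.5% of the list, then 12.5% and 62.5%, then 0% and 75%. Eef1a1, which delivers aminoacyl-tRNA and has a TOP mRNA, averaged 3745 CPM in untreated cells, 3721 CPM at 2 h and 3006 CPM at 6 h. It fell at 6 h by 0.32 ± 0.06 on the log2 scale (edgeR adjusted p = 0.000524). Pseudogene rows were matched only to ribosomal protein genes, so values of the genes in these lists come from their own rows alone. Eef2, which moves the ribosome by a codon, had log2 fold changes of 0.08 ± 0.04 and 0.09 ± 0.04 at the 2 times and passed at neither.

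Of 11 other genes with TOP mRNAs, 2 rose and 0 fell at 2 h against untreated, 3 rose and 6 fell at 6 h against untreated, and 1 rose and 6 fell at 6 h against 2 h. That is 18.2% and 0% of the list, then 27.3% and 54.5%, then 9.09% and 54.5%. The rises against untreated are near the shares of all rows, 19.3% and 26.4%. Rack1, a scaffold protein of the 40S head, averaged 407 CPM in untreated cells, 433 CPM at 2 h and 366 CPM at 6 h, and fell at 6 h by 0.15 ± 0.04 (edgeR adjusted p = 0.00568). Npm1, a nucleolar chaperone, fell at 6 h by 0.44 ± 0.05 (edgeR adjusted p = 2.01e-05). Tpt1 rose at 6 h by 0.17 ± 0.06 and Vim, an intermediate filament, by 0.30 ± 0.05 (edgeR adjusted p = 0.0296 and 0.000272). Of 29 initiation factors, 7 rose and 4 fell at 2 h against untreated, and 4 rose and 16 fell at 6 h against untreated. That is 24.1% and 13.8% of the list at 2 h, and 13.8% and 55.2% at 6 h. Eif4e, which binds the mRNA cap, averaged 63.9 CPM in untreated cells, 96.0 CPM at 2 h and 60.2 CPM at 6 h. It rose at 2 h by 0.59 ± 0.07 (edgeR adjusted p = 5.09e-05).

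Ribosome assembly factors did not share the rise at 2 h. Of 79 tested, 4 rose and 26 fell at 2 h against untreated, 3 rose and 55 fell at 6 h against untreated, and 8 rose and 28 fell at 6 h against 2 h. Of these factors 5.06%, 3.8% and 10.1% thus rose, and 32.9%, 69.6% and 35.4% fell. Their median log2 fold changes were -0.12, -0.25 and -0.08, where those of the members were 0.09, -0.09 and -0.17. Fbl, which methylates ribosomal RNA, averaged 42.6 CPM in untreated cells, 39.3 CPM at 2 h and 29.8 CPM at 6 h, and fell at 6 h by 0.51 ± 0.05 (edgeR adjusted p = 6.59e-06). Dkc1, which guides pseudouridine formation, fell by 0.69 ± 0.07 at 2 h and by 0.81 ± 0.07 at 6 h (edgeR adjusted p = 1.19e-05 and 2.31e-06). Of 16 genes for the RNA polymerase I machinery, which transcribes ribosomal RNA, 3 rose and 5 fell at 2 h against untreated, and 2 rose and 6 fell at 6 h against untreated. The rises are 18.8% and 12.5% of this list and the falls 31.2% and 37.5%. At 2 h the rises are near the 19.3% of all rows called higher. Polr1a, the largest subunit of that enzyme, fell by 0.37 ± 0.06 at 2 h and by 0.67 ± 0.06 at 6 h (edgeR adjusted p = 0.000271 and 1.97e-06). Mitochondrial ribosomal protein genes, which encode a separate ribosome, gave 7 rises and 10 falls of 78 at 2 h against untreated, and 8 rises and 26 falls at 6 h against untreated. That is 8.97% and 12.8% of this list at 2 h, both under the 19.3% and 19.2% of all rows. At 6 h it is 10.3% and 33.3%, where 26.4% and 25.7% of all rows were called.

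Of 41 genes of mTORC1 and TOP translation control, 6 rose and 9 fell at 2 h against untreated, and 14 rose and 10 fell at 6 h against untreated. Of these genes 14.6% and 34.1% thus rose at the 2 times, where 19.3% and 26.4% of all rows did. The 22% and 24.4% that fell are near the 19.2% and 25.7% of all rows. Among the 41, Larp1 averaged 179 CPM in untreated cells, 137 CPM at 2 h and 120 CPM at 6 h, and fell by 0.38 ± 0.05 and 0.58 ± 0.05 (edgeR adjusted p = 8.28e-05 and 2.16e-06). Ddit4, an inhibitor of mTORC1, averaged 3.42 CPM in untreated cells, 21.3 CPM at 2 h and 10.4 CPM at 6 h, and rose by 2.62 ± 0.15 at 2 h (edgeR adjusted p = 5.6e-07). Castor1, an arginine sensor that restrains mTORC1, rose by 1.65 ± 0.16 at 2 h and 2.41 ± 0.16 at 6 h (edgeR adjusted p = 2.3e-05 and 1.09e-06). Of 19 ribosome quality control genes, 2 rose and 6 fell at 2 h against untreated, and 6 rose and 4 fell at 6 h against untreated. That is 10.5% and 31.6% of the list at 2 h, and 31.6% and 21.1% at 6 h. Of 12 genes tested from the Myc and p53 pathways, 4 rose and 4 fell at 2 h against untreated, and 3 rose and 6 fell at 6 h against untreated. That is 33.3% each way at 2 h, and 25% and 50% at 6 h. The 6 h rises are near the 26.4% of all rows called higher. Myc, an activator of ribosomal protein genes, averaged 16.6 CPM in untreated cells, 11.4 CPM at 2 h and 17.8 CPM at 6 h, and fell at 2 h by 0.54 ± 0.09 (edgeR adjusted p = 0.000744). Cdkn1a, a p53 target, averaged 214 CPM in untreated cells, 380 CPM at 2 h and 159 CPM at 6 h. Its average was thus highest at 2 h, and it fell at 6 h by 0.43 ± 0.08 (edgeR adjusted p = 0.00096).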

How the data were processed

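Libraries were made from total RNA of BMDC with a non-stranded protocol, per the labels' protocols, so reads of overlapping antisense genes mix. Estimated counts were deposited as 1 table by the authors (RSEM 1.2.3, genome build mm10, per the submitters' processing notes) as whole numbers with no depth scaling. Aligner and annotation: not given in the sources used here. Rows named by transcript identifiers were matched to GENCODE M21 (GRCm38): 37776 of 38887 rows matched 1 gene and held 98.46% of counts.

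Low rows were removed by filterByExpr (at least 10 counts, total at least 15), and the rest was scaled with TMM and fitted over all 9 libraries with edgeR 4.0.16 (glmQLFit with robust fitting, glmQLFTest) in R 4.3.3, each group having its own mean. The Benjamini-Hochberg adjustment ran over all 14363 rows, and an adjusted p under 0.05 was called. SE is the size of the log2 fold change over the root of edgeR's F. CPM used TMM-scaled library sizes. Pseudogene rows were matched to members with BLAST+ 2.17.0 and added to the member before a second fit, which was chosen after seeing the data. Counts of replicate pairs differed by more than sampling noise. The scripts were tested on simulated data. Deviations of same-numbered libraries correlated at 0.144 to 0.178 for 6 h against untreated, above 0.1 in all 3 pairs, so the numbers were taken to pair the libraries there. Only the data show this pairing, as labels hold just the number. The main fit did not use it, and values from the fit with a replicate block are named as such. In the other comparisons the lowest correlations were 0.09 and 0.035.

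The members and gene lists were chosen with earlier results of these data known. Members named with values were, in each comparison, the 6 highest and 6 lowest log2 fold changes, the highest and lowest levels per kilobase, and a list of stalk, 5S, disease and paralog genes. From each related list, the genes with the smallest p were named. Not all of these are printed, and some items are not reported here. Alternatives were DESeq2 1.42.0, limma-voom (limma 3.58.1), other scalings and filters, a length offset, a replicate block and leaving out each library.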

Additional observations from a re-analysis of the deposited data

Results flagged for a closer look

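The members behaved differently at the 2 times of LPA exposure, by a test of 6 h against 2 h itself. In that test 56 of the 82 members were lower at 6 h than at 2 h. Rps23 was called in opposite directions at the 2 times only on its own row, which held 28.4% of its counts. Its log2 fold change at 6 h against 2 h was -0.27 there. With pseudogene rows added it was -0.19, and the 2 h value was 0.08 and did not pass (edgeR adjusted p = 0.113). Signal was also found in rows outside the member set. The rows of pseudogenes matched to members by sequence summed to a mean of 4435 CPM over the 9 libraries, more than the limit of a count of 0.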

How the results depend on the processing

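At 2 h against untreated, the 20 members called higher became 9 with a length offset, 11 with a length offset and replicate block, and 12 with only the 6 libraries compared. In these settings 2749 of 14363, 3000 of 14363 and 2542 of 14031 rows were called higher, larger shares than among the 82 members. The members' median of 0.09 became 0.05 with the length offset and 0.06 with that offset and the block. The 5 called lower became 1 with named pseudogene rows added and 0 with all sequence-matched ones. At 6 h against untreated, the 2 called higher became 5 with total counts only and 4 with the replicate block, and the 32 called lower became 18 with total counts only and 18 with no filter. Of all 14363 rows, total counts only called 4249 higher and the block 4072. Total counts only called 3212 of 14363 rows lower, a share near that of the 18 members. No filter called 3366 of 22804 rows lower. The members' median of -0.09 became -0.05 with total counts only and -0.07 with sequence-matched pseudogene rows. At 6 h against 2 h, the median of -0.17 became -0.12 with total counts only and -0.15 with the length offset, with or without the block. Total counts only moved the median of all rows at 6 h against 2 h to 0.05, and the share of calls that were higher to 59.1%, where TMM gave 50%. The cause of the moves with scaling, length and filter was not tested.

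Adding pseudogene rows turned the direction of 9 named values that were called on the own row, on the sum or on both: Rpl10a at 6 h against 2 h (to -0.14), Rpl12 (0.12), Rpl15 (0.04), Rpl28 (0.08), Rpl31 (0.13), Rpl5 (0.09) and Rps6 (0.09) at 2 h, and Rpl28 (0.06) and Rpl31 (0.06) at 6 h. Adding only the pseudogene rows named after a member turned 7 such values. No setting without added pseudogene rows turned a called named value.

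Leaving out each library in turn gave 6 to 22 members higher and 2 to 5 lower at 2 h, 0 to 5 higher and 20 to 38 lower at 6 h, and 1 higher and 44 to 57 lower at 6 h against 2 h, with medians of 0.08 to 0.10, -0.11 to -0.08 and -0.18 to -0.15. The replicate block called 28 members higher and 5 lower at 2 h, 37 lower at 6 h and 62 lower at 6 h against 2 h. Of all 14363 rows it called 3062 higher and 3073 lower at 2 h, 3964 lower at 6 h and 3818 lower against 2 h. At 6 h against untreated, where the pairing held, it added calls among the named members for Rps27a, Rps27rt and Rpl37a (0.14, edgeR adjusted p = 0.031) and changed no other. DESeq2 called 25 and 5, 3 and 37, and 1 and 57 members higher and lower in the 3 comparisons. Of all 14363 rows DESeq2 called 2583 and 2709, 3588 and 3523, and 3339 and 3305.

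Most changes were under 1.2-fold, and members near the threshold enter or leave the calls with small changes of the fit.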
